A study of Mus musculus with 6 samples.

Results

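The transcription factors that choose between the CD4 and the CD8 coreceptor lineage were described in induced T (iT) cells, the T cells that mouse pluripotent stem cells gave rise to after transplantation. The 10 genes were taken by name, namely Zbtb7b, Runx3, Cbfb, Gata3, Tox, Myb, Satb1, Patz1, Bcl11b and Tcf12, and make up 10 of the 23420 rows of the expression table. The comparison is of iT cells that carry CD4 alone (CD4SP) with iT cells that carry CD8 alone (CD8SP), with 3 libraries of 1000 sorted cells for each. Both populations descended from C57BL/6 (CD45.2) stem cells with a Runx1-p2a-Hoxa9 cassette in the Rosa26 locus under a doxycycline-inducible promoter, in hygromycin-selected clones. Doxycycline drove the cassette during culture, and the hematopoietic progenitors made there were then given to irradiated, immunodeficient B-NDG recipients, in the main protocol without the drug. The donor cells were sorted from the spleen as CD45.2+ cells that carried CD4 or CD8, a gate that does not remove regulatory T cells or other T cell subsets. The study calls each library a biological replicate, but neither it nor the labels say whether the libraries came from separate mice, so the p-values measure the spread between these libraries, part of which may be technical.

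In the thymus, a precursor that carries both CD4 and CD8 keeps CD4 when its T cell receptor recognizes MHC class II and keeps CD8 when it recognizes MHC class I. ThPOK, the zinc finger protein encoded by Zbtb7b, is the factor that commits cells to the CD4 fate, and RUNX3 with its partner CBFβ commits cells to the CD8 fate and silences both Cd4 and Zbtb7b. TOX, MYB and GATA3 act before ThPOK on the CD4 side, the PATZ1 protein (also called MAZR) represses Zbtb7b and the Cd8 genes, and SATB1, BCL11B and HEB (encoded by Tcf12) shape the chromatin of the developing T cell. Mature T cells keep many of these factors, and their transcripts are what was measured here.

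Values are TPM, the share of all transcripts that a gene takes, which is scaled by transcript length. Comparisons between genes below also assume that their transcripts were captured and amplified alike, which was not tested. Log2 fold changes are differences of log2(TPM + 1), CD4SP minus CD8SP, fitted with limma over 10476 genes at 1 TPM or more in at least 3 libraries. A gene was called when its Benjamini-Hochberg adjusted p was below 0.05 and its change exceeded 2-fold. All 10 factors were at 1 TPM or more in every library.

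The libraries were first checked against their labels. Cd4 stood at 279 to 331 TPM in CD4SP and at no more than 0.104 TPM in CD8SP libraries. Cd8a was at 1038 TPM or more in the CD8SP and at 2.93 TPM or less in the CD4SP libraries, so every library carried the coreceptor it was labelled with. Cd8b1 was at 2197 TPM or more in the CD8SP libraries and was not absent from the CD4SP libraries, at 24.3 to 36.0 TPM. The summed level of 6 T cell markers was 4960 to 5226 TPM in CD4SP and 4098 to 4593 TPM in CD8SP libraries. Of markers of other cells, 7 B cell genes summed to 17.9 to 24.3 TPM in CD4SP and 27.4 to 29.3 TPM in CD8SP, mostly Cd79b, with 2 of the 7 (Cd79a and Ebf1) higher in every CD4SP library, 2 higher in every CD8SP library and Ms4a1 and Pax5 listed at 0 throughout. The sum of 8 myeloid genes, mostly Lyz2, was 17.1 to 31.5 TPM in CD4SP and 3.64 to 9.09 TPM in CD8SP, with S100a8 and S100a9 listed at 0 throughout. Lyz2 was itself called as higher in CD4SP and the B cell gene Cd22 as higher in CD8SP, and the part of such cells in the results was not tested. Ribosomal protein genes took 24.1% to 28.8% of the TPM in CD4SP and 32.2% to 36.0% in CD8SP libraries. The median gene differed by 0.28 on the log2 scale towards CD4SP, and 74.8% of all tested genes had a positive log2 fold change. Rescaling the libraries by median of ratios brought that median close to 0, and 61.4% rather than 81.5% of all calls were then higher in CD4SP (57.1% after quantile normalization).

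Of the 10 factors, 3 were called, namely Zbtb7b, Gata3 and Myb, and all 3 were higher in CD4SP iT cells. Over all tested genes 9.73% were called, 7.92% as higher in CD4SP and 1.8% as higher in CD8SP. No factor was called as higher in CD8SP by limma, and at an unadjusted p below 0.05 the count in that direction was also 0, beside 5.69% of all tested genes. In 4 factors (the 3 called and Cbfb) every CD4SP library was above every CD8SP library, a separation found for 36.6% of all tested genes, and in the other 6 the groups overlapped. The reverse separation was found for 0 factors and for 6.61% of all tested genes. The median log2 fold change of the 10 was 0.47, beside 0.28 over all tested genes. In bulk samples, fewer cells of a type and less RNA per cell cannot be told apart.

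**Figure D1:**
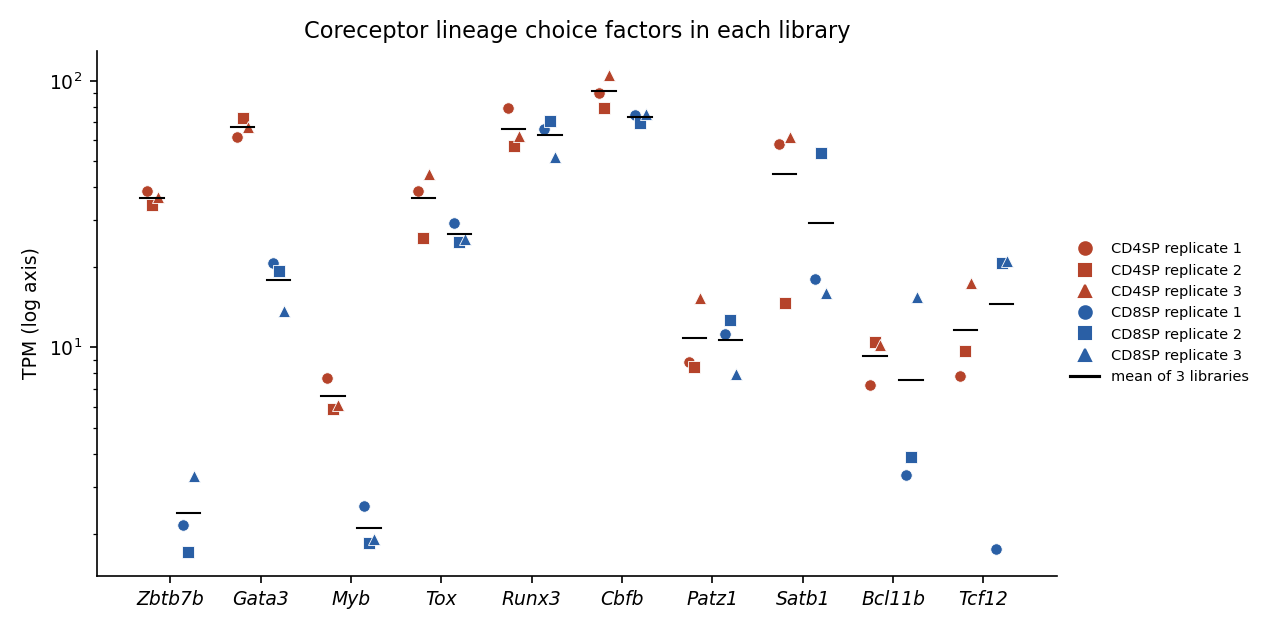
TPM on a log axis of the 10 factors in each of the 6 libraries, with CD4SP and CD8SP libraries as separate points and the mean of each population marked. Zbtb7b, Gata3 and Myb separate by population, Runx3 overlaps at 51.8 to 79.0 TPM, and Satb1, Bcl11b and Tcf12 spread widely within a population.

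Zbtb7b (chr3:89377644-89394776 on the minus strand of GRCm38, a protein-coding gene) stood at 38.6, 34.4 and 36.6 TPM in CD4SP replicates 1, 2 and 3. In CD8SP replicates 1, 2 and 3 it was at 2.16, 1.71 and 3.29 TPM. Every CD4SP library was thus far above every CD8SP library, and the CD4SP libraries lay close together. The means were 36.5 ± 2.13 (SD, n = 3) and 2.39 ± 0.812 TPM (SD, n = 3), a ratio of 15.3. Its log2 fold change was 3.49 (SE 0.220, 95% confidence interval 2.99 to 3.998, limma adjusted p = 3.64e-05), in size at percentile 99.6 of the tested genes. Among the tested genes Zbtb7b was at percentile 65.7 of level in CD4SP and at percentile 13.2 in CD8SP, a mid-range transcript in the former and among the lower expressed genes in the latter.

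Zbtb7b and Runx3 are the pair between which the choice is made, and each has 2 start sites far apart for which RefSeq (GRCm38.p6) gave a window. The 250 bases before each start are shown because RUNX proteins bind the letters TGTGGT. These are printed in capitals, and read ACCACA where the match is on the other strand. Each sequence runs 5′ to 3′ on the strand of its gene.
Zbtb7b, chr3:89387672-89387921, minus strand: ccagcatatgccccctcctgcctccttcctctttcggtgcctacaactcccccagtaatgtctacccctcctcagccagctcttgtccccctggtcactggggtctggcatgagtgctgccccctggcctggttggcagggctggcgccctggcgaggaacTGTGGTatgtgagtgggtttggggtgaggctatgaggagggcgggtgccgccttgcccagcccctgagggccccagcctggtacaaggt
Zbtb7b, chr3:89393379-89393628, minus strand: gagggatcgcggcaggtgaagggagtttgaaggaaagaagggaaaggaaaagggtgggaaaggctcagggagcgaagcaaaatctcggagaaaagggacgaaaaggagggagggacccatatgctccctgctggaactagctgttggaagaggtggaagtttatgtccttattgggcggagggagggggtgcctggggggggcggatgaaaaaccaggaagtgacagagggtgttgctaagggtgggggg
Runx3, chr4:135120395-135120644, plus strand: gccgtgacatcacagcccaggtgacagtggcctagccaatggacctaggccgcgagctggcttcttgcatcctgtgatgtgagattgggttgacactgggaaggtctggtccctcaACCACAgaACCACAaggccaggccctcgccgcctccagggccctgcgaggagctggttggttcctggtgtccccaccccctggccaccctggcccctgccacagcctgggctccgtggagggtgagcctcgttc
Runx3, chr4:135152295-135152544, plus strand: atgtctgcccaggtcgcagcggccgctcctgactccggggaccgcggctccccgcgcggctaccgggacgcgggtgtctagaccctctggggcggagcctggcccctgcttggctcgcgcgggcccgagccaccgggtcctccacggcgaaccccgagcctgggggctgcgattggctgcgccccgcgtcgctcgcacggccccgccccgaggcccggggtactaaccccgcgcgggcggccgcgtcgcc

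The downstream Zbtb7b window held the letters once, at 89 to 84 bases before the start, and the upstream window did not hold them. The distal Runx3 window held them as 2 neighbouring copies, at 134 to 129 and at 126 to 121 bases before the start, and the proximal Runx3 window had none. Windows were found for 9 of the 10 factors (Tox had none in the table), 18 windows in all, and only these 2 windows of the 18 held TGTGGT on either strand, beside 14.0% of 32851 windows of the same length. The GATA letters AGATAA were in 0 of the 18 windows (9.99% of all windows), the E-box CANNTG in 8 (66.2%) and the TCF letters CTTTGA in 2 (13.8%), each searched on both strands. A match is a stretch of letters and not a measured binding site. TPM per gene sums all transcripts, so use of the distal or the proximal promoter of Runx3 was not resolved.

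Of the factors that act before ThPOK on the CD4 side, Gata3 and Myb were called and Tox was not. Gata3 (chr2:9857078-9890034, minus strand), a zinc finger factor that CD4 lineage cells need and that also specifies Th2 cells, was at 61.6, 72.7 and 67.0 TPM in CD4SP and at 20.7, 19.4 and 13.7 TPM in CD8SP replicates 1, 2 and 3. Every CD4SP library was thus well above every CD8SP library, with a ratio of means of 3.74. On the log2 scale the change was 1.86 (SE 0.183, 95% confidence interval 1.44 to 2.28, limma adjusted p = 0.000384). Gata3 was a mid-range transcript in CD8SP iT cells, at percentile 54.1 of level, against percentile 79.3 in CD4SP. Of 4 Th2 markers, 3 (Il4 among them, listed at 0 in all CD8SP libraries) were higher in every CD4SP library, and their summed level was 19.2 to 22.0 TPM in CD4SP and at most 1.01 TPM in CD8SP. The summed level of 7 regulatory T cell markers, which some of these factors accompany in such cells, was 2825 to 3194 TPM in CD4SP and 335 to 392 TPM in CD8SP. The part of Th2 or regulatory T cells in the differences of Gata3, Zbtb7b and Myb was not tested.

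Myb (chr10:21124935-21160984, minus strand), which acts upstream of Gata3 in CD4 lineage differentiation, was a low transcript in both populations. It was at 7.70, 5.88 and 6.10 TPM in CD4SP and at 2.54, 1.85 and 1.91 TPM in CD8SP replicates 1, 2 and 3. The groups did not overlap, and the ratio of means was 3.13. This amounted to a log2 fold change of 1.29 (SE 0.234, 95% confidence interval 0.75 to 1.82, limma adjusted p = 0.00695). After quantile normalization the change was 0.93 (limma adjusted p = 0.0253), which is below the 2-fold criterion. An antisense transcript, Gm26577, shares 6.26% of the exon bases of Myb and has no row in the table. MYB is also abundant in immature thymocytes, whose markers Rag1, Rag2 and Ptcra were at 1.17 TPM or less in all libraries, while the summed level of 6 markers of that stage was 56.5 to 81.3 TPM in CD4SP and 33.7 to 44.5 TPM in CD8SP. The part of such cells in the Myb difference was not tested.

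Tox (chr4:6686353-6991557, minus strand), an HMG-box protein required for CD4 lineage development, was at 38.5, 25.8 and 44.9 TPM in CD4SP and at 29.3, 24.9 and 25.6 TPM in CD8SP replicates 1, 2 and 3. CD4SP replicate 2 lay within the CD8SP range and the other CD4SP libraries lay above it. Tox had a log2 fold change of 0.41 (SE 0.213, 95% confidence interval -0.082 to 0.89, limma adjusted p = 0.203). After median-of-ratios rescaling it was 0.11 and after quantile normalization 0.10. Without CD4SP replicate 2 the change was 0.63 (limma adjusted p = 0.0196), still below 2-fold, and without CD4SP replicate 3 it was 0.24 (limma adjusted p = 0.477). Tox was thus not called, unlike Gata3 and Myb, although the difference between these changes was not tested.

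Runx3 (chr4:135120652-135177990, plus strand), the factor of the CD8 fate, was among the most abundant of the 10 in both populations. It was at 79.0, 57.0 and 62.1 TPM in CD4SP and at 66.0, 71.0 and 51.8 TPM in CD8SP replicates 1, 2 and 3. The highest library was a CD4SP and the lowest a CD8SP library, with the others intermixed. Runx3 had a log2 fold change of 0.068 (SE 0.177, adjusted p = 0.803 by limma), with a 95% confidence interval from 0.793-fold to 1.39-fold on the TPM + 1 scale, so a 2-fold difference in either direction lay outside it. Its sign turned to CD8SP after median-of-ratios rescaling (-0.23) and quantile normalization (-0.20), with neither passing the test. Transcripts of the 2 promoters are translated with different efficiency, so the summed level of Runx3 is not a measure of RUNX3 protein. Of 7 NK markers, Ncr1 and Klra8 were listed at 0 throughout, and the summed level was 29.5 to 39.5 TPM in CD4SP and 86.4 to 112 TPM in CD8SP libraries. Of the 7, 3 were higher in every CD8SP library and 0 in every CD4SP library. Klrb1c (log2 fold change -1.86, adjusted p = 0.00426 by limma) and Klre1 (-2.66, adjusted p = 0.000534 by limma) were called as higher in CD8SP. The part of NK cells in the results was not tested.

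Cbfb (chr8:105170674-105217989, plus strand) encodes the subunit that binds no DNA itself and stabilizes all RUNX proteins on DNA. It was at 90.4, 79.3 and 105.7 TPM in CD4SP and at 74.7, 69.5 and 75.5 TPM in CD8SP replicates 1, 2 and 3. The populations did not overlap, but the gap between CD4SP replicate 2 and CD8SP replicate 3 was small and was lost after each of the 3 rescalings. On the log2 scale the difference was 0.31 (SE 0.140, 95% confidence interval -0.0069 to 0.63, limma adjusted p = 0.142), close to the median of all tested genes. Cbfb was not called.

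**Figure D2:**
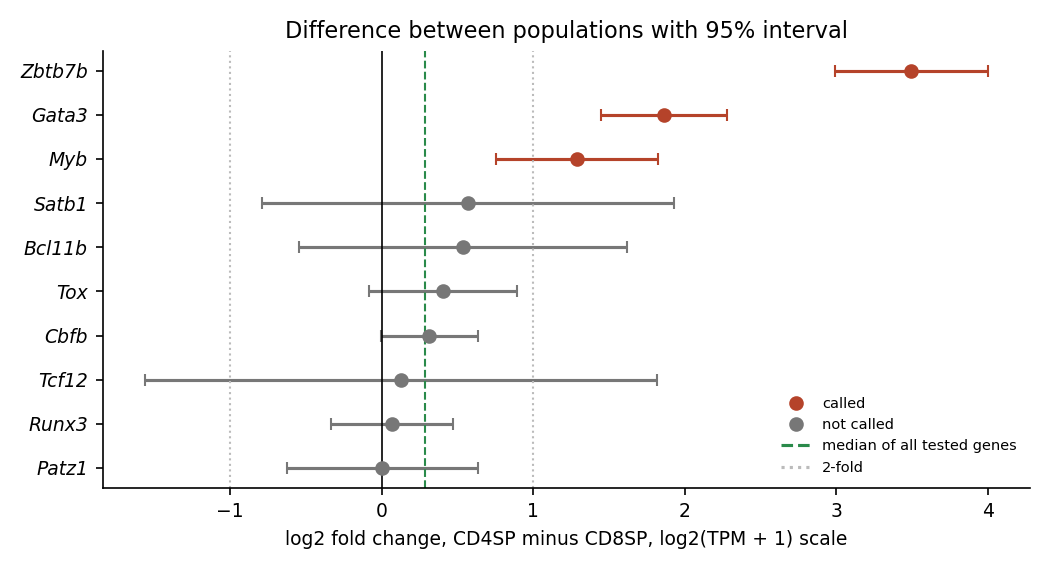
Log2 fold change, CD4SP minus CD8SP on log2(TPM + 1), of each of the 10 factors with its 95% confidence interval from limma, the median of all tested genes as a dashed line and 2-fold as dotted lines. Zbtb7b (3.49), Gata3 (1.86) and Myb (1.29) are the factors whose intervals lie wholly above 0, and the intervals of Satb1, Bcl11b and Tcf12 are the widest.

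Since ThPOK and RUNX3 oppose each other, their transcripts were compared within each library. Runx3 exceeded Zbtb7b in all 6 libraries, by 2.05, 1.66 and 1.70 times in CD4SP replicates 1, 2 and 3 and by 30.5, 41.5 and 15.7 times in CD8SP replicates 1, 2 and 3. By TPM, Runx3 transcript thus stood above that of Zbtb7b in CD4SP iT cells as well, and the ratio of Runx3 to Zbtb7b was lower in every CD4SP than in every CD8SP library. The log2 ratio of Zbtb7b to Runx3, with 1 TPM added to each, was -0.83 ± 0.164 (SD, n = 3) in CD4SP and -4.25 ± 0.570 (SD, n = 3) in CD8SP. The difference was 3.43, with an exact permutation p = 0.1 (two-sided), the smallest that 3 against 3 libraries can give. The log2 ratio of Gata3 to Runx3 was 0.033 ± 0.356 in CD4SP and -1.76 ± 0.118 in CD8SP (SD, n = 3), a difference of 1.79 with the same exact permutation p = 0.1.

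The RUNX family shares Cbfb, so its 3 members were also summed. Runx1, a paralog that acts in thymocytes before lineage choice, was at 12.8, 12.3 and 10.9 TPM in CD4SP and at 3.901, 4.15 and 3.23 TPM in CD8SP replicates 1, 2 and 3, without overlap. Runx1 was called, with a log2 fold change of 1.45 (SE 0.202, adjusted p = 0.00221 by limma). Reads from the Runx1 cassette and from the endogenous gene cannot be told apart in this table. Runx2 was not called, at 22.4 to 27.6 TPM in CD4SP and 17.7 to 20.2 TPM in CD8SP libraries. The RUNX sum came to 117.7, 91.7 and 100.6 TPM in CD4SP and to 90.0, 93.0 and 72.7 TPM in CD8SP replicates 1, 2 and 3, and the populations overlapped. Runx3 made up 61.7% to 67.1% of that sum in CD4SP and 71.2% to 76.3% in CD8SP libraries, and Runx1 10.8% to 13.4% and 4.33% to 4.47%. The Runx1 part was thus larger and the Runx3 part smaller in every CD4SP library.

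The log2 ratio of Runx1 to Runx3 differed between the populations by 1.38 (exact permutation p = 0.1, two-sided, the smallest possible). The ratio of Cbfb to the RUNX sum stayed between 0.747 and 1.05 in all 6 libraries. On the log2 scale the ratio of the RUNX sum to Cbfb was 0.17 ± 0.226 (SD, n = 3) in CD4SP and 0.21 ± 0.240 (SD, n = 3) in CD8SP, with overlapping groups (difference -0.038, exact permutation p = 0.7).

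**Figure D3:**
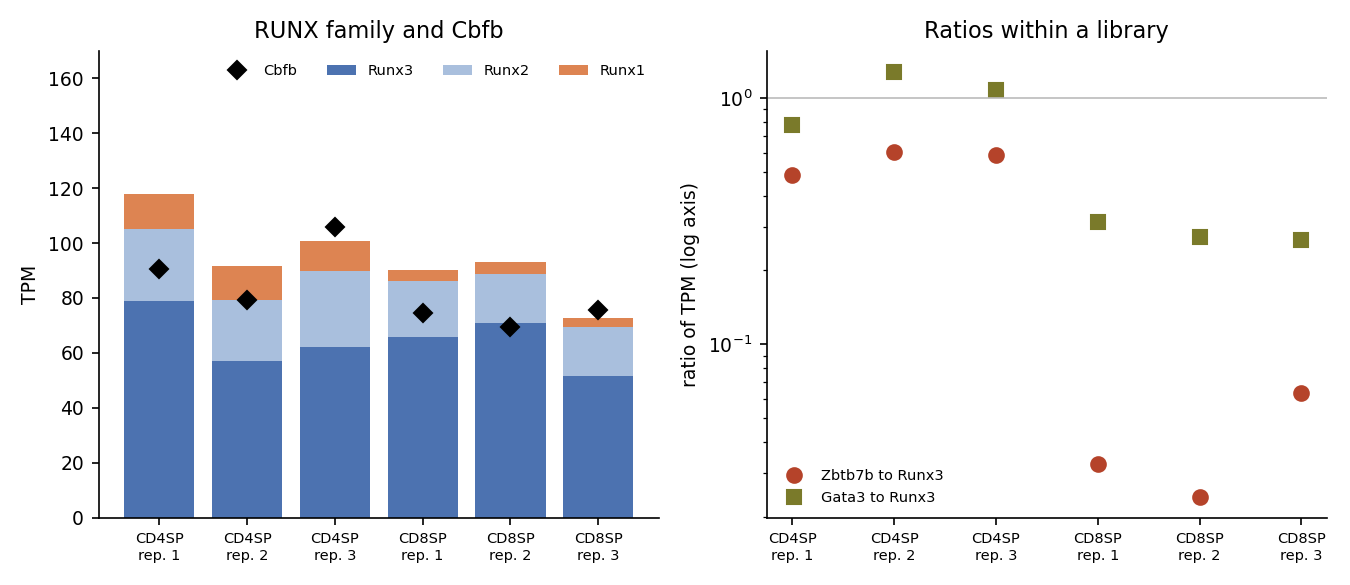
Left, TPM of Runx1, Runx2 and Runx3 stacked for each library with Cbfb as a diamond. Right, the ratio of TPM within each library on a log axis, where Zbtb7b to Runx3 (circles) lies at 0.489 to 0.603 in CD4SP and 0.0241 to 0.0635 in CD8SP libraries, and Gata3 to Runx3 (squares) at 0.780 to 1.27 and 0.265 to 0.314.

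The remaining 4 factors showed no called difference, and 3 of them varied widely between libraries of the same population. Patz1 (chr11:3288874-3309083, plus strand) was the exception with a moderate spread, at 8.81, 8.48 and 15.3 TPM in CD4SP and at 11.3, 12.7 and 7.94 TPM in CD8SP replicates 1, 2 and 3. The repressor of Zbtb7b thus stood at a like mean level in both populations, 10.9 ± 3.86 and 10.6 ± 2.43 TPM (SD, n = 3). Its log2 fold change was 0.0053 (SE 0.275, 95% confidence interval -0.62 to 0.63, limma adjusted p = 0.990), and it turned to -0.28 after median-of-ratios rescaling.

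Satb1 (chr17:51736187-51833290, minus strand), a protein that organizes chromatin loops and is needed for both lineages to switch on their factors, was at 58.1, 14.7 and 61.7 TPM in CD4SP and at 18.1, 53.8 and 16.0 TPM in CD8SP replicates 1, 2 and 3. Each population thus held libraries at both a high and a low level. CD4SP replicate 2 was low and CD8SP replicate 2 was high, each against the other libraries of its population. Between the populations Satb1 differed by 0.57 on the log2 scale (SE 0.595, 95% confidence interval -0.79 to 1.93, limma adjusted p = 0.511), and with each library left out in turn it ran from 0.23 (without CD4SP replicate 3) to 1.22 (without CD4SP replicate 2, limma adjusted p = 0.0927). It was also 1.11 without CD8SP replicate 2, 0.27 without CD4SP replicate 1, 0.26 without CD8SP replicate 3 and 0.35 without CD8SP replicate 1, none of them called. In the same CD4SP replicate 2, Foxp3, the factor of regulatory T cells, was at 6.56 TPM beside 142 and 167 TPM in the other CD4SP libraries, while the summed level of 7 regulatory T cell markers was 2825 TPM there and 3139 to 3194 TPM in the others. The part of regulatory T cells in the Satb1 values was not tested.

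Bcl11b (chr12:107910403-108003602, minus strand), a zinc finger protein that commits precursors to the T lineage and binds regulatory elements of Zbtb7b and Runx3, was at 7.24, 10.5 and 10.3 TPM in CD4SP and at 3.31, 3.89 and 15.5 TPM in CD8SP replicates 1, 2 and 3. CD8SP replicate 3 was above all other libraries, and the remaining CD8SP libraries were below all CD4SP libraries. For Bcl11b the log2 fold change was 0.54 (SE 0.474, 95% confidence interval -0.54 to 1.62, limma adjusted p = 0.436). Without CD8SP replicate 3 it was 1.15 (limma adjusted p = 0.0317) and met the call, so that library decided whether Bcl11b was counted. It was 0.19 without CD8SP replicate 1 and 0.28 without CD8SP replicate 2, the lowest values with a library left out, and not called in either.

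Tcf12 (chr9:71842688-72111871, minus strand), which encodes the E protein HEB, was at 7.80, 9.69 and 17.4 TPM in CD4SP and at 1.75, 20.8 and 21.2 TPM in CD8SP replicates 1, 2 and 3. CD8SP replicate 1 was far below every other library. Over all 6 libraries the log2 fold change was 0.13 (SE 0.741, 95% confidence interval -1.56 to 1.82, limma adjusted p = 0.914). It turned to -0.87 (limma adjusted p = 0.130) without CD8SP replicate 1 and to -0.18 (limma adjusted p = 0.908) without CD4SP replicate 3, so it had no stable direction. On the TPM + 1 scale its interval ran from 0.338-fold to 3.53-fold, and the data did not bound the difference more closely.

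The standard deviation within populations placed Satb1 at percentile 98.1, Bcl11b at 95.9 and Tcf12 at 99.0 of all tested genes, while the other 7 lay between percentiles 18.1 (Cbfb) and 76.3 (Patz1). CD8SP replicates 1 and 2 were the most alike of all pairs of libraries, with a median absolute difference of 0.0750 on the log2 scale. Even between these, Tcf12 differed 11.9-fold and Satb1 2.97-fold, more than 99.8% and 99.2% of tested genes, whereas the other 8 factors differed 1.07-fold to 1.37-fold. Bcl11b and Tcf12 were both lowest in replicate 1 of each population and ordered the CD8SP libraries alike, whereas Satb1 was highest in CD8SP replicate 2, and whether the factors varied together was not tested.

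**Figure D4:**
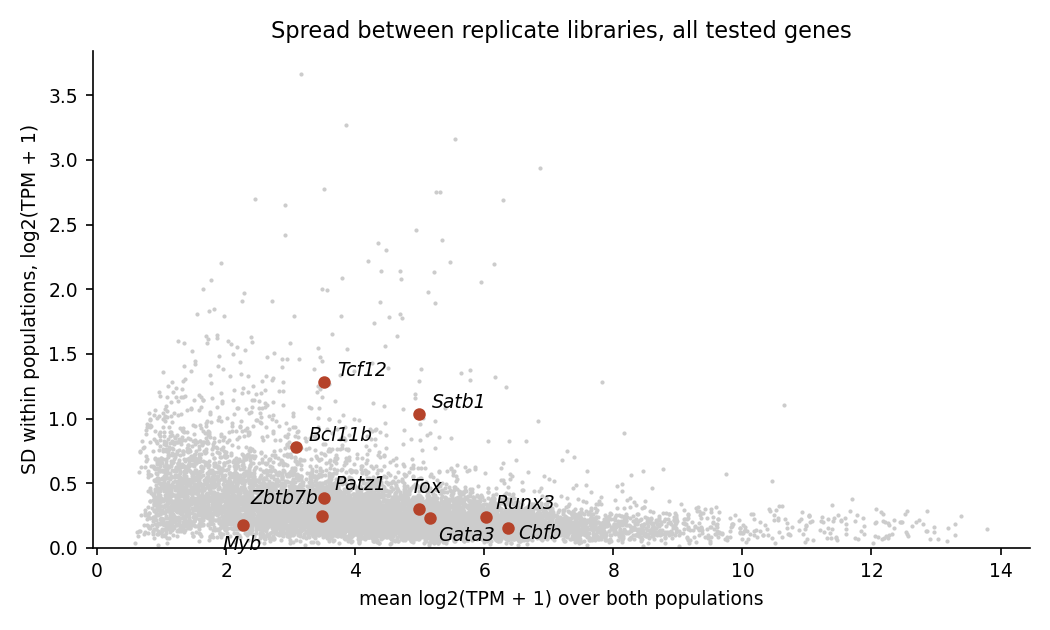
Standard deviation of log2(TPM + 1) within populations against mean log2(TPM + 1) over both populations, for all 10476 tested genes in grey and the 10 factors named. Tcf12, Satb1 and Bcl11b lie at percentiles 99.0, 98.1 and 95.9 of spread, and Cbfb at 18.1.

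By mean TPM, the order in CD4SP iT cells was Cbfb (91.8), Gata3 (67.1), Runx3 (66.1), Satb1 (44.8), Zbtb7b (36.5), Tox (36.4), Tcf12 (11.6), Patz1 (10.9), Bcl11b (9.32) and Myb (6.56). Of neighbours in that order, the library ranges were separate only between Cbfb and Gata3 and between Tox and Tcf12. In CD8SP iT cells the order was Cbfb (73.2), Runx3 (62.9), Satb1 (29.3), Tox (26.6), Gata3 (18.0), Tcf12 (14.6), Patz1 (10.6), Bcl11b (7.55), Zbtb7b (2.39) and Myb (2.10), with separate ranges only between Tox and Gata3 and between Bcl11b and Zbtb7b. Cbfb led in both populations. Gata3 ranked 2 in CD4SP and 5 in CD8SP, and Zbtb7b 5 and 9.

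The genes around these factors were described from lists of their families and pathways. Their counts stand beside 9.73% called over all tested genes, with 81.5% of all calls higher in CD4SP. In the RUNX family list, which also holds Cbfb and the TLE corepressors, 1 of 7 tested genes was called (Runx1, higher in CD4SP), and the median log2 fold change was 0.31. In the POK and BTB zinc finger list, the family of ThPOK and PATZ1, 2 of 13 tested genes were called, both higher in CD4SP. These were Zbtb7b and Bcl6, the factor of follicular helper cells, which was at 2.04 to 3.16 TPM in CD4SP and 0.326 to 0.676 TPM in CD8SP libraries, with a log2 fold change of 1.24 (adjusted p = 0.0174 by limma). Bcl6 lost its call in 5 of 17 alternatives, among them leaving out CD8SP replicate 1 or CD8SP replicate 2. Zbtb7a, the closest relative of Zbtb7b, was at 6.29, 8.04 and 7.87 TPM in CD4SP and at 5.70, 5.88 and 5.09 TPM in CD8SP replicates 1, 2 and 3 and was not called, with a log2 fold change of 0.35 (adjusted p = 0.246 by limma). Zbtb7c and Zbtb16, the latter encoding the innate-like T cell factor PLZF, were listed at 0 in all libraries. The 4 markers of innate-like and gamma delta T cells, Zbtb16 among them, summed to 33.9 to 44.8 TPM in CD4SP and 56.0 to 77.2 TPM in CD8SP libraries, with Cd163l1 called as higher in CD8SP, Il17a called as higher in CD4SP and Sox13 listed at 0, and the part of such cells in the results was not tested. Among 7 tested paralogs of the factors, 1 was called, again Runx1.

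In the list of E proteins and their Id inhibitors, limma called 0 of 5 tested genes, with 2 below an unadjusted p of 0.05, which 37.1% of all tested genes met. These 2 were the inhibitors Id2 and Id3. Id2, which blocks E proteins such as HEB, was at 668, 532 and 240 TPM in CD4SP and at 192, 206 and 247 TPM in CD8SP replicates 1, 2 and 3, with a log2 fold change of 1.04 (adjusted p = 0.0561 by limma). CD4SP replicate 3 lay within the CD8SP range for Id2, and without that library, or with library weights, Id2 was called. Tcf3, the E protein partner of Tcf12, was at 20.04 to 32.2 TPM over the libraries and was not called. In the HMG-box list, which holds Tox, Tcf7 and Lef1, limma called 0 of 6 tested genes, with 3 below an unadjusted p of 0.05 (Tcf7, Hmgb2 and, higher in CD8SP, Lef1). In the list of NuRD subunits and cofactors, which work with ThPOK, GATA3 and BCL11B, limma called 0 of 16, with 5 below an unadjusted p of 0.05 (Chd3, Chd4, Mbd2, Rbbp4 and Ep300), and the median log2 fold change of 0.35 was near that of all genes.

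In the list of signals that set coreceptor choice, 3 of 15 tested genes were called, beside 9.73% of all tested genes. All 3 were higher in CD4SP, as were 81.5% of all calls. Egr1 and Egr2, immediate early factors downstream of the T cell receptor, had log2 fold changes of 1.58 (adjusted p = 0.000581 by limma) and 2.38 (adjusted p = 0.0104 by limma). Egr2 was at 9.17 to 13.3 TPM in CD4SP libraries and at 2.73, 2.32 and 0 TPM in CD8SP replicates 1, 2 and 3. Socs1, an inhibitor of cytokine signalling, was at 34.1, 72.1 and 46.9 TPM in CD4SP and at 27.1, 26.2 and 18.3 TPM in CD8SP replicates 1, 2 and 3, with a log2 fold change of 1.02 (adjusted p = 0.0329 by limma). Socs1 was barely past 2-fold and lost its call in 12 of 17 alternatives, among them leaving out any library but CD4SP replicate 1, and Egr2 lost its call with a pseudocount of 0.1. Receptors and kinases of the interleukin 7 pathway, which favours the CD8 fate, were not called, with Il7r at 338 to 434 TPM in CD4SP and 271 to 342 TPM in CD8SP libraries. Stat5a, Stat5b and Stat6 passed the adjusted p alone, as did 20.8% of all tested genes, with log2 fold changes of 0.73, 0.90 and 0.54 in favour of CD4SP. With the replicate number as a block, Stat5a (adjusted p = 0.0548 by limma) and Stat6 (0.0691) no longer passed.

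Genes of the CD4 and of the CD8 lineage were listed next, with the factors among them. Of 9 CD4 lineage genes, 8 were called as higher in CD4SP, with a median log2 fold change of 2.40. These 9 include Zbtb7b, Gata3, Myb and Tox, and without these factors the count was 5 of 5 (Cd4, Cd40lg, Maf, Icos and Cd5). Maf, a factor of helper cells, was at 42.2 to 69.7 TPM in CD4SP and 1.36 to 3.40 TPM in CD8SP libraries. Of 13 CD8 and cytotoxic genes, Runx3 included, 10 were called as higher in CD8SP, with a median of -2.41. Eomes, a T-box factor of cytotoxic cells that acts with RUNX3, was at 8.19 to 10.6 TPM in CD4SP and 49.9 to 55.4 TPM in CD8SP libraries, with a log2 fold change of -2.37 (adjusted p = 5.52e-05 by limma). Crtam had a log2 fold change of -3.48 (adjusted p = 2.41e-05 by limma). Runx3 and Gzmb were the 2 not called, and Itgae, an integrin chain whose gene RUNX3 activates in CD8 cells, was called in the other direction, at 176 to 222 TPM in CD4SP and 66.4 to 82.2 TPM in CD8SP libraries, with a log2 fold change of 1.32 (adjusted p = 0.000696 by limma). Both lists hold genes by which CD4 and CD8 cells are defined or sorted, so their counts are a description of the populations.

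The 5 genes outside the 10 factors whose profile over the 6 libraries was nearest to that of Zbtb7b were St6galnac1, Cd83, Ccr4, Folr4 and Ifitm2, by the mean absolute difference of centred log2(TPM + 1) values, which ran from 0.217 to 0.250. Cd83, a surface protein that thymic epithelium and activated CD4 cells carry, was at 35.6 to 54.6 TPM in CD4SP and 1.99 to 3.54 TPM in CD8SP libraries, with a ratio of means of 16.2. Ccr4, a chemokine receptor of Th2 and regulatory T cells, was at 12.6 to 15.3 TPM in CD4SP and at most 0.349 TPM in CD8SP libraries. Folr4, which encodes the folate receptor 4 of regulatory T cells, was at 428 to 485 TPM in CD4SP and 29.7 to 38.1 TPM in CD8SP libraries. St6galnac1 was listed at 0 in all CD8SP libraries.

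**Figure D5:**
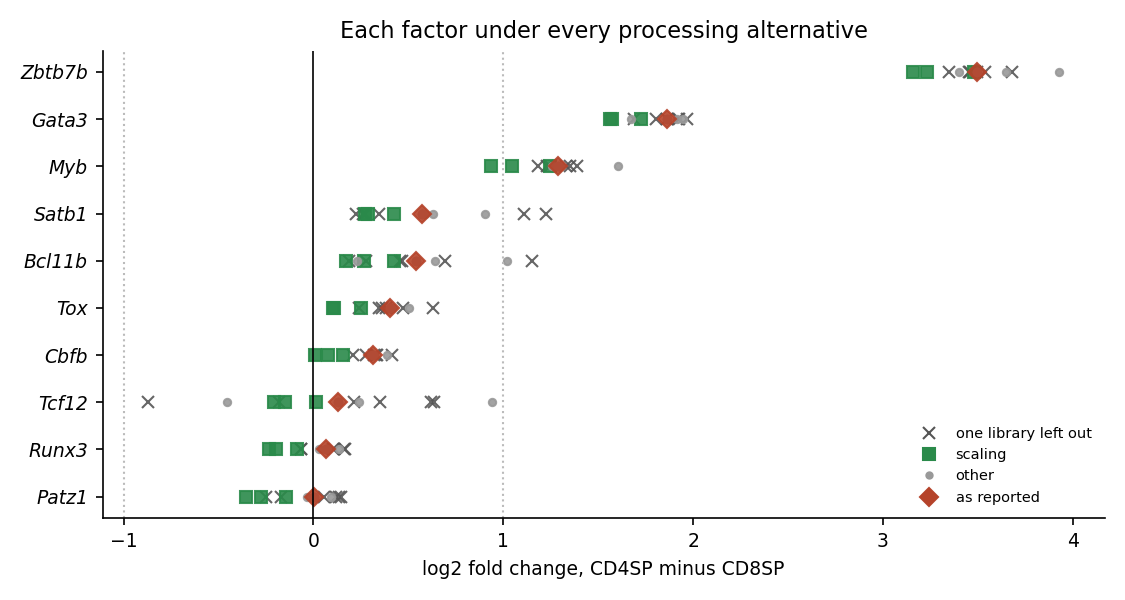
Log2 fold change of each factor as reported and under the other settings (one library left out, another scaling, or another filter, pseudocount or weighting). Zbtb7b stayed between 3.16 and 3.93, Gata3 between 1.56 and 1.97 and Myb between 0.93 and 1.60, while Runx3, Patz1 and Tcf12 lie on both sides of 0.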

How the data were processed

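Polyadenylated RNA of 1000 sorted cells per library was amplified with a single-cell whole-transcriptome kit and sequenced. The labels name bcl2fastq, HISAT2, SAMtools and StringTie and the mm10 build, and the authors deposited 1 table of TPM values per gene. The annotation, the use of strand and the treatment of duplicates are not given in the sources used here. TPM keeps no depth, so depth and counting error are unknown. TPM summed to 997896 to 998100 per library, 10329 to 10649 genes were at 1 TPM or more in CD4SP and 9971 to 10149 in CD8SP libraries, and 27 row names read as dates.

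The 10 factors and the gene lists were chosen with earlier results of these data known. log2(TPM + 1) was fitted with limma 3.58.1 (R 4.3.3; mean-variance trend, two-sided) on the 6 libraries with population as the only term, over 10476 genes at 1 TPM or more in at least 3 libraries, with Benjamini-Hochberg adjustment over all of them. The script was tested on simulated data. Ratios within libraries were compared by an exact permutation test with scipy 1.17.1. The genes named were all 10 factors, called genes of the lists or genes set beside a factor, Cd4 and Cd8a, and the 5 nearest profiles to Zbtb7b; Foxp3, Id2, Il7r, the STAT genes and genes given for a list's range were picked after their values were seen. Positions are from GENCODE M21 (GRCm38, the assembly called mm10). Exons of other genes overlapped at most 10.2% of the exon bases of a factor (Patz1), and transcripts of other genes matching a factor at 95% identity or more over at least 200 bases (blastn 2.17.0) were the antisense or processed transcripts Gm26577, Gm12592 and Gm11802, which have no row. Alternatives were another pseudocount, filter, scaling, weighting or trend, the fold threshold dropped, a replicate block and each library left out.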

Additional observations from a re-analysis of the deposited data

How the results depend on the processing

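Over 17 alternatives, Zbtb7b and Gata3 kept their call and direction, with log2 fold changes of 3.16 to 3.93 and 1.56 to 1.97, and Myb kept its direction (0.93 to 1.60) and lost its call under quantile normalization. The number of the 10 factors called ran from 2 (quantile normalization) to 4 (without CD8SP replicate 3, which added Bcl11b), and leaving out a library gave 3 to 4. Of all tested genes, 7.42% were called under quantile normalization and 8.21% without CD8SP replicate 3, beside 9.73% in the main setting. With a library left out that share ran from 7.8% to 11.5%. Over all genes, 1019 calls became 731 with a filter of 5 TPM, 1202 without CD4SP replicate 2 and 2183 without the fold threshold. The number of factors higher in every CD4SP library was 3 after each rescaling and 4 to 6 with a library left out (6 without CD4SP replicate 2). The share over all tested genes was not computed in these settings. Groups also separate more easily with fewer libraries, so these counts cannot be set against the 36.6% of the main setting.

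The sign changed in factors that were never called. Runx3 was at -0.23 with median-of-ratios scaling, at -0.20 with quantile normalization and at -0.089 with ribosomal protein genes removed, and at -0.066 to 0.17 with a library left out. Patz1 was at -0.28, -0.36 and -0.14 in the same order, at -0.032 with library weights and at -0.25 to 0.14 with a library left out. Tcf12 was at -0.15 with median-of-ratios scaling, at -0.21 with quantile normalization and at -0.46 with CD8SP replicates 1 and 2 averaged (chosen after seeing the data), and at -0.87 to 0.63 with a library left out. The ratio of the RUNX sum to Cbfb moved to 0.028 with those averaged and ran from -0.17 to 0.083 with a library left out. The cause was not tested.

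Calls in the lists moved by a few genes. With a library left out, the RUNX list had 1 to 2 calls (Tle3 added without CD4SP replicate 1), the POK and BTB list 1 to 3, the E protein list 0 to 1 (Id2 added without CD4SP replicate 3) and the HMG-box list 0 to 1 (Hmgb2 added without CD8SP replicate 2). The POK and BTB list had 1 call, having lost Bcl6, with those replicates averaged, with the 5 TPM filter and with quantile normalization, and 4 without the fold threshold. Library weights gave 1 call in the E protein list (Id2), and removing ribosomal protein genes gave 1 in the HMG-box and 2 in the paralog list (Tox2 added in both). The signalling list had 2 to 3 calls with a library left out, 2 under most other alternatives (mostly without Socs1) and 6 without the fold threshold, where the NuRD list had 2.

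Libraries with the same number in both populations did not vary together (correlations of 0.0515, -0.0168 and 0.0887). Whether they came from the same mouse is not known. These correlations cannot decide it, since part of the spread between libraries may be technical. With a replicate block, 3 factors were called and 997 genes in all. With 3 libraries a group, Satb1, Bcl11b and Tcf12 allow only wide intervals, and TPM carries no depth by which the counting error could be set.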
